A study of Mus musculus with 18 samples.

Results

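The genes examined were 8 enzymes of asparagine, proline, glutamate, glutamine, alanine and cysteine metabolism, namely Asns, Aldh18a1, Pycr1, Oat, Got1, Gpt2, Glul and Cth. They were taken by their symbols from tables of 23420 genes, and all 8 were found and tested in each table. RNA-seq had been performed on whole lungs of mouse embryos at 14.5 dpc (days post coitus). The question was how these enzymes changed when epithelial cells of the lung lost mTORC1 (Rptor), the factor that maintains and transcribes mitochondrial DNA (Tfam) or an assembly factor of cytochrome c oxidase (Cox10).

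Deficient lungs were Rptor f/f; ShhCre/+, Tfam f/f; ShhCre/+ or Cox10 f/f; ShhCre/+. Control littermates were Rptor f/+; ShhCre/+, Tfam f/+; ShhCre/+ or Cox10 f/+; ShhCre/+, so that controls also carried Cre and a floxed allele. Cre was expressed from the Shh locus, which is active in the lung epithelium, and every lung had a Shh allele occupied by Cre. Each of the 6 groups had 3 samples, 18 in all. The other cells of the lung kept the targeted gene, and in a whole lung, fewer cells of a type and less RNA per cell cannot be told apart.

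These enzymes move carbon and nitrogen between non-essential amino acids. Asparagine synthetase takes the amide group of glutamine to turn aspartate into asparagine. Proline is built from glutamate or from ornithine, and glutamate also gives its amino group to oxaloacetate and pyruvate and is itself the substrate of glutamine synthesis. Cystathionine gamma-lyase releases cysteine at the end of transsulfuration. Several of these genes, above all Asns, are textbook targets of the ATF4 branch of the integrated stress response, which cells use when amino acids run short or mitochondria fail.

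Normalised read counts, that is, reads per gene after division by a size factor, summed to between 27727200 and 29611100 per sample. Replicates of a group correlated at 0.991 to 0.995 across genes. None of the 3 targeted genes differed in its own line past the threshold (limma adjusted p from 0.472 to 0.979). The tables add the reads of a whole gene and of all lung cells, so these values do not check the labels. Epithelial markers (Epcam, Cdh1, Nkx2-1, Krt8, Krt18 and Cldn6) were lower in Rptor-deficient lungs for 6 of 6 genes, with a median log2 change of -1.16. They were lower for 2 of 6 in Tfam-deficient lungs (median -0.25) and for 0 of 6 in Cox10-deficient lungs (median -0.40), where 6 of 6 had an unadjusted limma p below 0.05. The summed level of these markers was 26827 to 27819 in controls and 10524 to 13939 in deficient lungs of the Rptor line. It was 24873 to 26237 against 19993 to 22533 in the Tfam line, and 20107 to 20502 against 13659 to 18370 in the Cox10 line. Markers of other cells moved as well. In Rptor-deficient lungs 5 of 6 mesenchyme markers were higher (median log2 change 0.86, sum of 180790 to 211600 in controls and 371220 to 401820 in deficient lungs). So were 4 of 4 endothelium markers (sum of 24254 to 25530 against 30867 to 34230), 3 of 3 macrophage markers (1459 to 1709 against 2840 to 3268) and 2 of 3 mesothelium markers (2895 to 4100 against 5475 to 6175). Of the smooth muscle markers there 3 of 4 were lower and 1 higher, and the sums overlapped (15390 to 20691 against 16847 to 25016). In Tfam-deficient lungs 3 of 4 smooth muscle markers were lower (20606 to 23824 against 15591 to 18319). The others past the threshold were 1 liver and 1 heart marker in the Rptor line and 1 heart marker in the Tfam line, all higher. In Cox10-deficient lungs 0 markers of any list passed in limma. Beside the epithelial ones, 3 of 4 smooth muscle, 2 of 6 mesenchyme, 1 of 3 macrophage and 1 of 5 red blood cell markers had an unadjusted limma p below 0.05. So had 1945 of all 14937 genes. Of the Cox10-deficient lungs, replicate 3 read highest for every epithelium and endothelium marker (endothelium sums from 17187 to 26823, median 18647). No marker was at 0 in all samples of a line.

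Of the 8 enzymes, 4 passed the threshold in the Rptor line (1 higher and 3 lower), 5 in the Tfam line (all higher) and 0 in the Cox10 line. The threshold was a p from limma, adjusted over all genes of the line by the Benjamini-Hochberg method, below 0.05. Of all genes 34.8% passed in the Rptor line, 16.6% higher and 18.2% lower. For Tfam this was 4.66%, 2.03% higher and 2.63% lower. For Cox10 it was 0.475%, 0.141% higher and 0.335% lower. There 3 of the 8 enzymes had an unadjusted limma p below 0.05, as had 1945 of all 14937 genes. The 8 enzymes had a median log2 change (deficient minus control) of -0.17 after loss of Rptor, 0.31 after loss of Tfam and 0.09 after loss of Cox10, while that of all genes tested was 0.01, 0.00 and 0.00. Deficient and control values stood apart for 6 enzymes with Rptor deleted, 5 with Tfam deleted and 3 with Cox10 deleted, against 50.3%, 22.8% and 21.3% of all genes. The share in the Rptor line was thus read against a background in which a large part of all genes had changed. With the replicate number as a term of the fit (the replicate block), 5 passed in the Rptor line, with Aldh18a1 and Oat gained downwards and Cth lost. The count in the Rptor line fell to 1 without control replicate 1 and to 2 without control replicate 2, control replicate 3 or deficient replicate 2. The count in the Tfam line fell to 3 without control replicate 1 or deficient replicate 1, and that in the Cox10 line rose to 1 without deficient replicate 3.

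**Figure D1:**
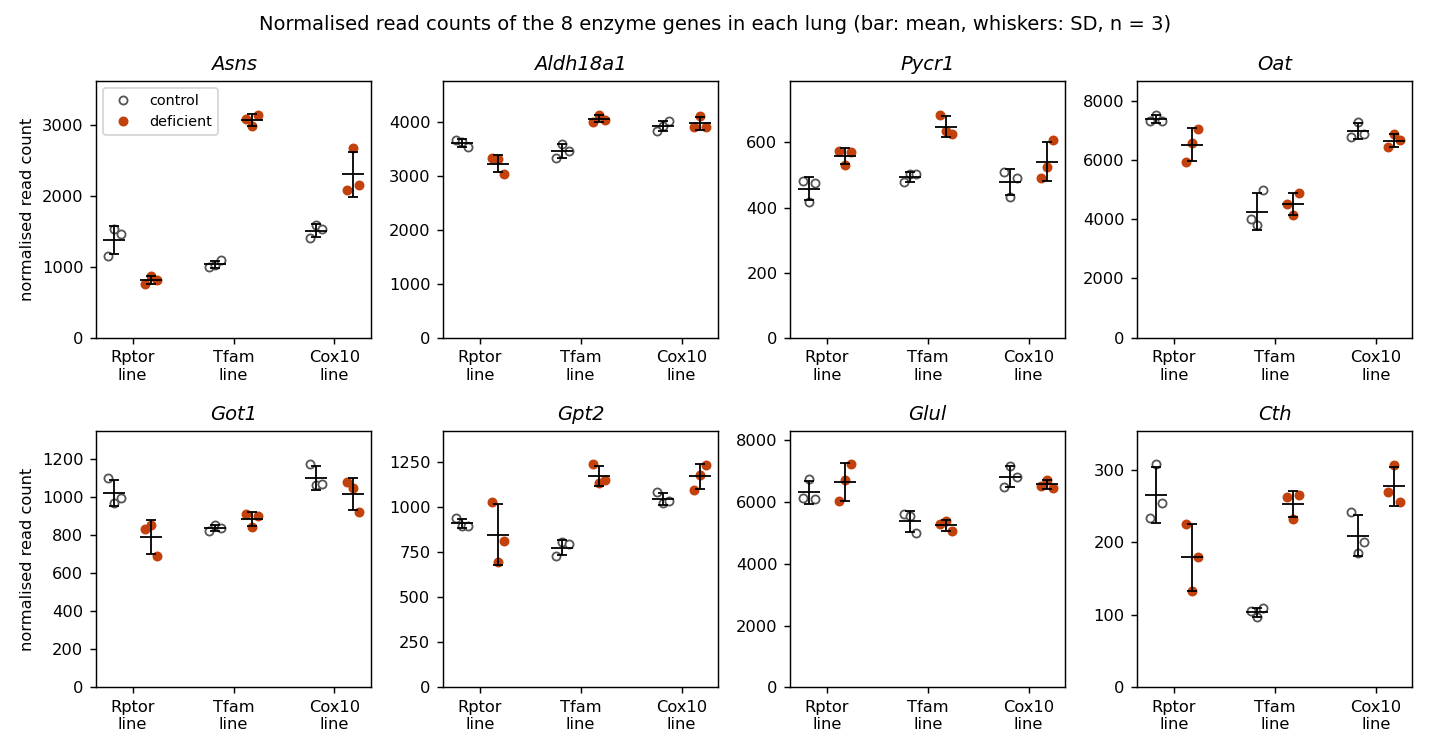
Normalised read counts (y axis, from 0) of each enzyme gene in the 3 lines (x axis), with open circles for control and filled circles for deficient lungs. Horizontal bars and whiskers are the mean and SD of 3 samples. Asns of Tfam-deficient lungs sits at 2984 to 3150, above the controls of that line at 993 to 1092, while Asns of Rptor-deficient lungs sits at 757 to 870.5, below its controls.

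Asns encodes asparagine synthetase and lies on chromosome 6 (chr6:7675169-7693254, minus strand, GRCm38). Its normalised read counts in the Rptor line were 1153, 1531 and 1461 in controls and 757, 870.5 and 819 in deficient lungs. All 3 deficient lungs were below all 3 controls, a log2 change of -0.75 (standard error 0.11, 95% confidence interval -1.01 to -0.50, limma adjusted p = 0.00156) or 0.594 times the control level. With Tfam the counts were 993, 1027 and 1092 in controls and 3089, 2984 and 3150 in deficient lungs. The groups were far apart, with a log2 change of 1.57 (standard error 0.060, 95% confidence interval 1.43 to 1.70, limma adjusted p = 3.3e-07), which is 2.96-fold. For Cox10 the counts were 1409, 1586 and 1540.0 in controls and 2079, 2673 and 2160 in deficient lungs. Every deficient lung was above every control, and the log2 change was 0.60 (standard error 0.098, 95% confidence interval 0.37 to 0.83), but the limma adjusted p was 0.0544. With a sample left out it ran from 0.0254 (without deficient replicate 3) to 0.324 and missed the threshold in 5 of 6 fits, and in a fit of all 18 samples it was 0.00277.

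The effect on Asns differed between each pair of lines. The difference of log2 changes was -2.32 for Rptor minus Tfam (standard error 0.14, limma adjusted p = 7.9e-08), -1.35 for Rptor minus Cox10 (standard error 0.14, limma adjusted p = 2.28e-05) and 0.97 for Tfam minus Cox10 (standard error 0.14, limma adjusted p = 0.0111). Of all 14550 genes, 11.2%, 7.48% and 0.055% passed these tests, the last being 8 genes. The difference between the Tfam and Cox10 lines was past the threshold in 9 of 12 fits with a sample left out. It had a limma adjusted p of 0.0502 without Tfam control replicate 1, 0.0535 without Tfam deficient replicate 3 and 0.0523 without Cox10 control replicate 2.

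Got1 is the cytosolic aspartate aminotransferase, which interconverts aspartate and glutamate, and lies at chr19:43499752-43524605 on the minus strand. Its normalised read counts in the Rptor line were 1097, 966 and 996 in controls and 833, 851 and 689 in deficient lungs, without overlap. The log2 change was -0.37 (standard error 0.097, 95% confidence interval -0.59 to -0.15, limma adjusted p = 0.0191), and without control replicate 1 the limma adjusted p was 0.0717. Got1 of the Tfam line read 822, 854 and 833 in controls and 908, 839.8 and 897 in deficient lungs, and in the Cox10 line 1170.2, 1061 and 1065 against 1079, 1044 and 918. These groups overlapped, and the log2 changes were 0.08 (limma adjusted p = 0.607) and -0.12 (limma adjusted p = 0.533). The effect in the Rptor line was lower than in the Tfam line by 0.45 on the log2 scale (limma adjusted p = 0.0219), a call lost without Rptor control replicate 1 (0.0582) or Tfam deficient replicate 3 (0.0549).

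Aldh18a1 encodes the enzyme that makes the first intermediates of proline and ornithine from glutamate inside mitochondria (chr19:40550257-40588463, minus strand). Its normalised read counts in the Tfam line were 3340, 3605 and 3468 in controls and 4010, 4147 and 4053 in deficient lungs. The groups did not overlap, with a log2 change of 0.23 (standard error 0.054, 95% confidence interval 0.11 to 0.35, limma adjusted p = 0.0365). The call was lost in 5 of 6 fits with a sample left out, all but that without control replicate 3, with limma adjusted p of 0.0506 to 0.162. Rptor lungs had 3671, 3636 and 3536 in controls and 3335, 3317 and 3049 in deficient lungs, again without overlap but in the other direction. The log2 change there was -0.16 (limma adjusted p = 0.0511, and 0.0419 with the replicate block). Both groups of the Cox10 line were alike to within their spread, at 3836, 3936 and 4036 in controls and 3920, 4121 and 3917 in deficient lungs. Between the Rptor and Tfam lines the effects differed by -0.39 on the log2 scale (standard error 0.067, limma adjusted p = 0.00145).

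Pycr1 encodes a mitochondrial pyrroline-5-carboxylate reductase, which carries out the last step of proline synthesis (chr11:120635712-120643769, minus strand). It was the sole enzyme of the 8 that passed the threshold upwards in the Rptor line, where its normalised read counts were 482, 417 and 476 in controls and 575, 529.8 and 571 in deficient lungs. The log2 change was 0.29 (standard error 0.091, limma adjusted p = 0.0377), and every one of the 6 fits with a sample left out lost the call, at a limma adjusted p of 0.0543 to 0.119. Tfam lungs went from 478, 503 and 502 to 686, 636 and 625. This was a log2 change of 0.39 (standard error 0.074, limma adjusted p = 0.0123), lost without control replicate 1 (0.0629) or deficient replicate 1 (0.0601). Cox10 lungs had 509, 434 and 491 in controls and 491, 524 and 607 in deficient lungs, overlapping between 491 and 509 (log2 change 0.18, limma adjusted p = 0.498). No difference between lines passed for Pycr1, and the interval for Rptor minus Tfam was -0.37 to 0.16 on the log2 scale.

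Oat encodes ornithine aminotransferase, the mitochondrial link between ornithine and the proline pathway (chr7:132557478-132576398, minus strand). Its normalised read counts in the Rptor line were 7312, 7535 and 7316 in controls and 5936, 6577 and 7039 in deficient lungs. The deficient lungs were all lower, with a log2 change of -0.18 (limma adjusted p = 0.0608). With the replicate block the limma adjusted p was 0.0444. With a sample left out the log2 change ran from -0.24 to -0.12. It passed only without deficient replicate 3 (limma adjusted p = 0.027). Oat of the Tfam line read 4013, 3792 and 4970.4 in controls and 4499, 4136 and 4879 in deficient lungs, and in the Cox10 line 6764, 7270.3 and 6884 against 6422, 6864 and 6669. The groups overlapped in both (log2 changes 0.09 and -0.07). Oat of Tfam controls lay under that of every control of the other tables, which had been scaled separately, so that this difference was not tested.

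**Figure D2:**
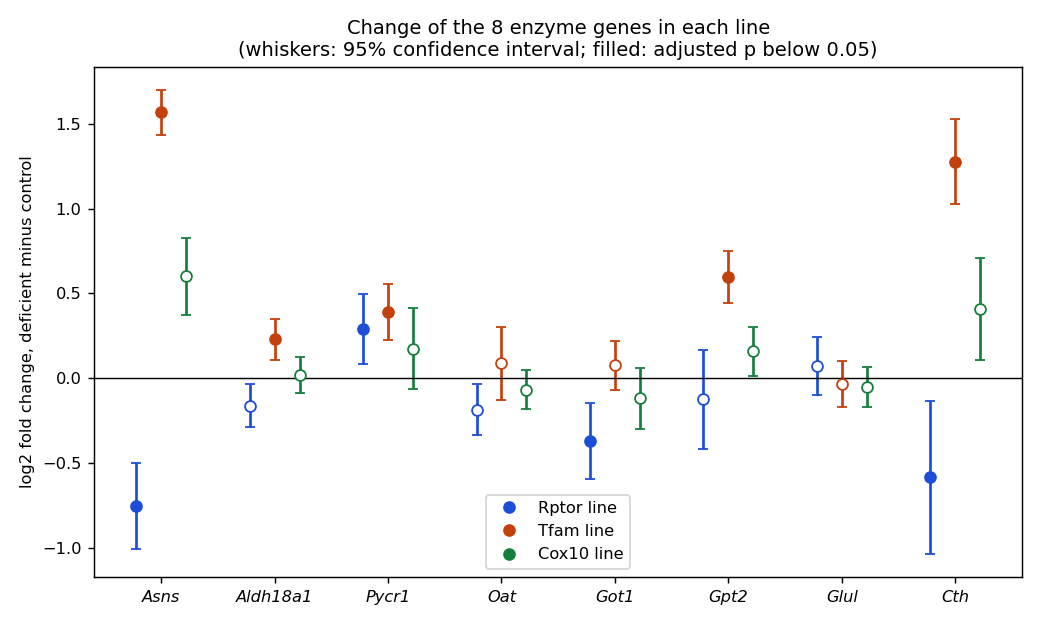
Log2 change (y axis, deficient minus control) of each enzyme gene (x axis) in each line (colours), with whiskers for the 95% confidence interval. Filled points have a limma adjusted p below 0.05. Asns and Cth show the widest gaps between lines, from -0.75 to 1.57 and from -0.58 to 1.28, while the 3 points of Glul stay near 0.

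Gpt2 is the mitochondrial alanine aminotransferase, which forms alanine and 2-oxoglutarate from pyruvate and glutamate (chr8:85492576-85527560, plus strand). Its normalised read counts in the Tfam line were 728, 805 and 794 in controls and 1239, 1132 and 1149 in deficient lungs. The groups were well apart, with a log2 change of 0.60 (standard error 0.070, 95% confidence interval 0.44 to 0.75, limma adjusted p = 0.000666), and the call held in all 6 fits without a sample. Rptor lungs had 937, 896 and 897 in controls and 1030.0, 697 and 812 in deficient lungs. Deficient replicate 1 was above all controls and the other 2 were below them. The log2 change of -0.12 was not past the threshold (limma adjusted p = 0.486), became -0.27 without deficient replicate 1 (limma adjusted p = 0.0315) and 0.01 without deficient replicate 2 (0.968). Cox10 lungs had 1086, 1023 and 1035 in controls and 1097, 1181 and 1236 in deficient lungs, separate by a small margin (log2 change 0.16, limma adjusted p = 0.360). The effects in the Rptor and Tfam lines differed by -0.72 on the log2 scale (standard error 0.14, limma adjusted p = 0.0038).

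Glul encodes glutamine synthetase, which adds ammonia to glutamate (chr1:153899944-153909723, plus strand). Per exon length it was among the most abundant of the 8, and it did not pass the threshold in any line. Normalised read counts were 6109, 6723 and 6076 in controls and 6008, 6690.4 and 7212 in deficient lungs of the Rptor line. They were 5594, 5529 and 4978 against 5287, 5390.1 and 5044 in the Tfam line, and 6481, 7144 and 6794 against 6517, 6711 and 6447 in the Cox10 line. The groups overlapped in every line. The 95% confidence intervals of the log2 change were -0.10 to 0.24, -0.17 to 0.10 and -0.17 to 0.06, so that a change by more than 0.24 on the log2 scale lay outside each of them. Exons of Glul share 116 bases with Teddm2 on the opposite strand, and the sources used here do not give the strand setting of the counting.

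Cth encodes cystathionine gamma-lyase (chr3:157894248-157925077, minus strand) and had the lowest level per exon length of the 8 in controls. Normalised read counts were 106, 97.0 and 109 in controls and 262, 232 and 265 in deficient lungs of the Tfam line. The highest control, 109, and the lowest deficient lung, 232, were far apart, and the log2 change was 1.28 (standard error 0.11, 95% confidence interval 1.02 to 1.53, limma adjusted p = 0.000109). Rptor lungs had 233, 308 and 254 in controls and 225, 133 and 179.8 in deficient lungs, which were lower by a margin of a few reads. The log2 change of -0.58 (standard error 0.20, 95% confidence interval -1.03 to -0.13) had a limma adjusted p of 0.0488, and of 0.0558 with the replicate block. It lost the threshold in 5 of 6 fits without a sample, all but that without deficient replicate 1, with limma adjusted p of 0.0654 to 0.165. Cox10 lungs had 241, 186 and 201 in controls and 269, 307 and 255 in deficient lungs, all higher than the controls (log2 change 0.41, limma adjusted p = 0.286).

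The difference in the effect on Cth was -1.86 on the log2 scale for Rptor minus Tfam (standard error 0.23, limma adjusted p = 8.6e-05) and -0.99 for Rptor minus Cox10 (standard error 0.23, limma adjusted p = 0.0122). For Tfam minus Cox10 it was 0.87 (95% confidence interval 0.39 to 1.35, limma adjusted p = 0.660). In all, 5 of the 8 enzymes differed between the Rptor and Tfam lines (Asns, Aldh18a1, Got1, Gpt2 and Cth), 2 between Rptor and Cox10 (Asns and Cth) and 1 between Tfam and Cox10 (Asns), against 11.2%, 7.48% and 0.055% of all genes. With the replicate block Oat also differed between the Rptor and Tfam lines (limma adjusted p = 0.0333). Epithelial markers moved beside these values, with a lower sum in deficient lungs of every line, as did mesenchyme, endothelium, macrophage, mesothelium and smooth muscle markers in the Rptor line and smooth muscle markers in the Tfam line, and their part in the results was not tested. In the Rptor line Asns, Got1 and Cth were lower, as was the epithelial marker sum, and Pycr1 was higher. In the Tfam line Asns and Cth rose while that sum was lower.

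Compared per length, Oat and Glul were the highest of the 8 in control lungs and Cth the lowest. Oat had 3130 ± 54.1 normalised reads per kb of exon in controls of the Rptor line (SD, n = 3) and Glul 1897 ± 110. Aldh18a1 followed with 888 ± 17.2, then Asns with 505 ± 73.5, Got1 with 402 ± 27.0, Gpt2 with 161 ± 4.17, Pycr1 with 116 ± 9.19 and Cth with 94.9 ± 13.8. In these controls the ranges of Asns and Got1 overlapped, as did those of Pycr1 and Cth, so that these neighbours were not separated. The order was the same in controls of the other lines, where Oat and Glul overlapped in the Tfam table. In Tfam-deficient lungs Asns reached 1124 ± 30.6 per kb and lay above Aldh18a1 at 999 ± 17.3, without overlap. Cth had 37.2 ± 2.22 per kb in Tfam controls and 90.7 ± 6.47 in Tfam-deficient lungs, a level near that of controls of the Rptor line, although the tables were scaled apart.

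Promoters were searched for TGATGNAA, the core of the amino acid response element to which ATF4 binds with a partner. Sequences of 300 bases, from 250 bases before to 50 after the start site, were taken from RefSeq (GRCm38.p6) for 7 of the 8 genes. Cth was not among them. The motif was found on either strand in 3 of the 7 (Asns, Pycr1 and Got1), against 3.97% of 32851 promoters in all, 3.44% of the promoters of genes in the tables and 0 of 53 promoters of the other pathway genes listed below. The 8 genes were chosen with earlier results known and include textbook targets of ATF4, so that these shares do not test the set. The 3 are shown because they hold the motif, which stands in capitals.
Asns, chr6:7693160-7693459, minus strand: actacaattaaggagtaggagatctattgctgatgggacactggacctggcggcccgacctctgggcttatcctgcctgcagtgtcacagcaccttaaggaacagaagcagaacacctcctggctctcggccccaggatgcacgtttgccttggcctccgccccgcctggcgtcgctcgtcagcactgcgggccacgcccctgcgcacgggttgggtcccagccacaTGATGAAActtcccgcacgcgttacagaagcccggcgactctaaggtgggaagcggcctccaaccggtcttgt
Pycr1, chr11:120643699-120643998, minus strand: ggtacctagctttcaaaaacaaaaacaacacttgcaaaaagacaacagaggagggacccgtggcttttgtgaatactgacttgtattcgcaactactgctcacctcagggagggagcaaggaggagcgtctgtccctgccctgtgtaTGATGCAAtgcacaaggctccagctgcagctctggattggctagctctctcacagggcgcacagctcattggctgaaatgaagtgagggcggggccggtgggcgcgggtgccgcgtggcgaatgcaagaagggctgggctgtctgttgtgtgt
Got1, chr19:43524556-43524855, minus strand: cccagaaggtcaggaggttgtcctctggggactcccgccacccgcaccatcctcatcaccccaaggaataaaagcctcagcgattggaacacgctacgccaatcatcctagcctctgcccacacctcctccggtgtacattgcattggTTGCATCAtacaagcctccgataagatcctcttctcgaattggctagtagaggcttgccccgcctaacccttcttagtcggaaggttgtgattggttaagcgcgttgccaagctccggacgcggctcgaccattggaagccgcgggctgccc

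The motif began 23 bases before the RefSeq start site in Asns and 103 bases before it in Pycr1, both read in the direction of the gene. The span of Asns printed above is from GENCODE and starts further upstream, so that the motif lies inside that span. In Got1 it began 102 bases before the start site and reads TGATGCAA on the opposite strand. The 3 genes with the motif did not share a direction in the Rptor line, where Asns and Got1 were lower and Pycr1 higher. In the Tfam line Asns and Pycr1 passed the threshold upwards, and Got1 had 0.08 and did not. Among the 4 without it in this window, Aldh18a1 and Gpt2 passed the threshold in the Tfam line and Oat and Glul did not. A match of letters is not a bound site.

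Factors of the integrated stress response were read beside the enzymes. With Tfam deleted, Chac1, Trib3, Atf5 and Sesn2 rose by log2 changes of 3.47, 2.20, 1.28 and 0.78 (4 of 6 past the threshold), while Atf4 itself had 0.19 (limma adjusted p = 0.0860) and Ddit3 0.34 (0.220). With Cox10 deleted, Trib3 rose by 1.24 (limma adjusted p = 0.0312), and Chac1 had 1.87 (0.0607). With Rptor deleted, Atf4 fell by 0.53 (limma adjusted p = 0.00424) and Ddit3 rose by 0.44 (0.0417), while Trib3 read 182 in deficient replicate 1, far above the other lungs of the line. That lung also read lowest of the 3 deficient lungs for Atf4 (3162 against 4172 and 4038) and Sesn2 (301 against 421 and 426). Without it 5 enzymes passed the threshold in the Rptor line, namely Asns, Got1, Gpt2, Cth and Aldh18a1, all lower. Pycr1 stayed positive in that fit (log2 change 0.27, limma adjusted p = 0.0621). Without deficient replicate 2 in its place 2 passed, and without control replicate 1 only 1 did. This lung was singled out after its values were seen, and the share of all genes in these fits was not taken.

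**Figure D3:**
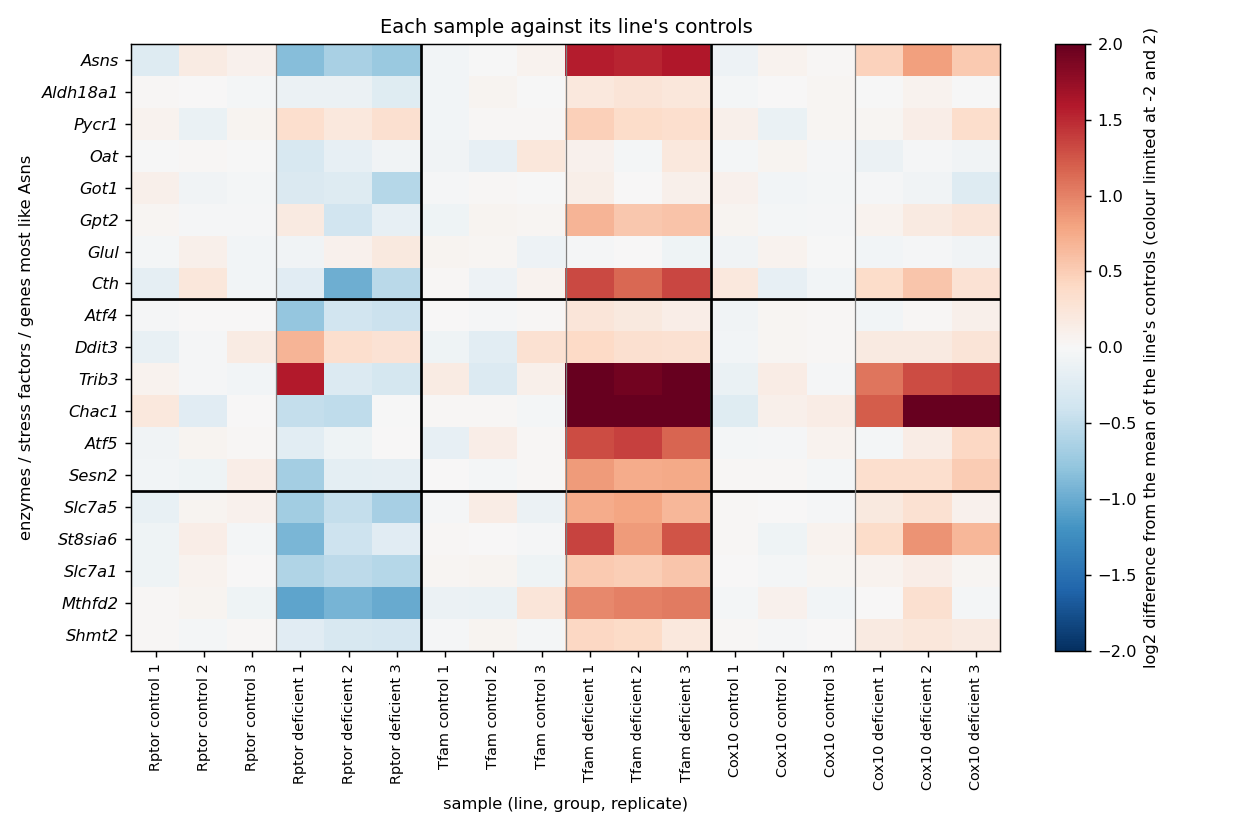
Log2 difference of each sample (columns, by line, group and replicate) from the mean of the controls of its line, for the 8 enzymes, 6 stress factors and the 5 genes whose pattern was most like that of Asns (rows). Red is above and blue below the controls, with the colour limited at -2 and 2. Asns, Cth and the bottom 5 rows are blue in Rptor-deficient lungs and red in Tfam-deficient lungs, and Glul stays pale.

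The pattern of Asns over the 18 samples, each taken as the log2 difference from the controls of its line, was compared with 12850 genes outside the lists. The highest Pearson r were those of Slc7a5 (0.964), St8sia6 (0.955), Slc7a1 (0.941), Mthfd2 (0.941) and Shmt2 (0.920). Slc7a5 and Slc7a1 carry amino acids across the plasma membrane, St8sia6 is a sialyltransferase, and Mthfd2 and Shmt2 are mitochondrial enzymes of one-carbon metabolism. With Rptor, Tfam and Cox10 deleted, Mthfd2 had log2 changes of -0.998, 1.01 and 0.10 and Slc7a5 of -0.61, 0.74 and 0.19, respectively. Among the 8 enzymes r with Asns was 0.948 for Cth, 0.917 for Aldh18a1, 0.855 for Gpt2, 0.561 for Got1, 0.558 for Oat, 0.365 for Pycr1 and -0.354 for Glul. The samples fall into 6 groups, so these r are a description of how the groups lie and not of the spread between lungs. When each sample was taken as the deviation from its own group mean, r with Asns was 0.073 for Cth, 0.172 for Aldh18a1 and -0.296 for Gpt2.

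The other genes of these pathways were 58 enzymes and carriers in 8 lists, of which 46, 47 and 46 were tested for Rptor, Tfam and Cox10. With Rptor deleted, 19 (41.3%) passed, 5 higher and 14 lower, against 34.8% of all genes, with a median log2 change of -0.14 over the 46. With Tfam deleted, 3 (6.38%) passed, all higher, against 4.66% of all genes, with a median of -0.01. With Cox10 deleted, 1 (2.17%) passed, against 0.475% of all genes, with a median of 0.03. The shares in the Rptor and Tfam lines were near those of all genes. Of the 45 tested in all lines, 9 differed in effect between the Rptor and Tfam lines by limma, 3 between Rptor and Cox10 and 0 between Tfam and Cox10, where 3 had an unadjusted limma p below 0.05. Of all genes 11.2%, 7.48% and 0.055% differed, and for Tfam minus Cox10 664 of 14550 were below that unadjusted p. The count of 3 in the Tfam line fell to 1 without control replicate 1, deficient replicate 2 or deficient replicate 3. That of 1 in the Cox10 line fell to 0 without control replicate 1, 2 or 3 or deficient replicate 1.

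**Figure D4:**
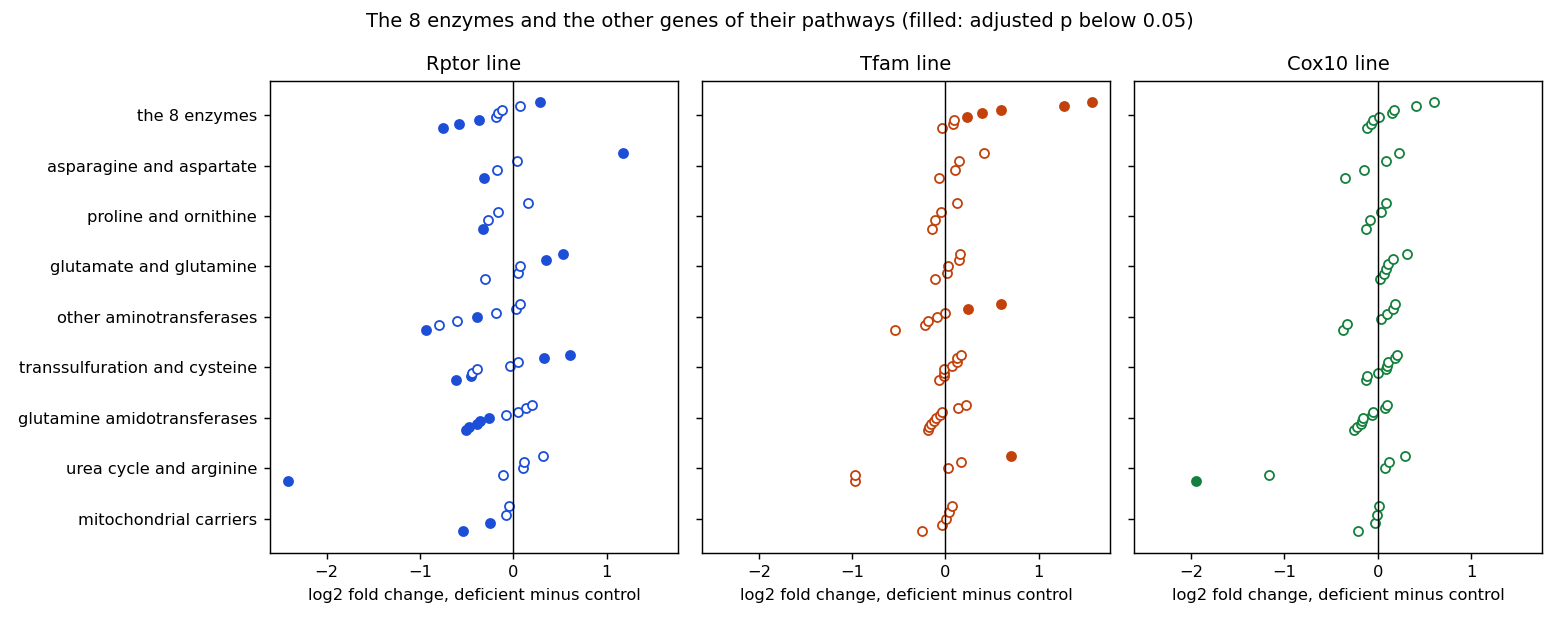
Log2 change (x axis, deficient minus control) of the 8 enzymes (top row) and of the other tested genes of 8 pathway lists (rows below), in 1 panel per line. Filled points have a limma adjusted p below 0.05. In the Rptor panel 14 of the other genes are filled to the left and 5 to the right, and in the Tfam panel the filled points are to the right.

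The enzymes that use the amide of glutamine, as Asns does, formed the list with most calls in the Rptor line, and with most genes tested. Of this list 55.6% was called there, against 50% of the asparagine, transsulfuration and carrier lists. Of the 9 glutamine amidotransferases 5 fell there, namely Ctps (log2 change -0.50), Ppat (-0.48), Cad (-0.39), Gmps (-0.35) and Pfas (-0.26), which serve pyrimidine and purine synthesis, in a line where 18.2% of all genes were lower. Nadsyn1 (0.20), Gfpt1 (0.14), Gfpt2 (0.05) and Ctps2 (-0.08) did not pass. With Tfam or Cox10 deleted, limma called 0 of these 9, with 4 and 2 at an unadjusted limma p below 0.05, and list medians of -0.11 and -0.16. Of all genes, 2618 of 15053 and 1945 of 14937 were below that unadjusted p.

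The largest falls of the wider pathways in the Rptor line were those of Cps1, Psat1 and Gclc. Cps1, which makes carbamoyl phosphate for the urea cycle, had 252 ± 29.4 normalised reads (mean ± SD of 3 samples) in controls and 48.3 ± 16.5 in deficient lungs, a log2 change of -2.41 (limma adjusted p = 0.000359). Psat1, the aminotransferase of serine synthesis, went from 10055 ± 289 to 5250.2 ± 209 (log2 change -0.94, limma adjusted p = 2.35e-05). Gclc, the catalytic subunit of the first enzyme of glutathione synthesis, fell by 0.62 on the log2 scale (limma adjusted p = 0.000465). The largest rises were those of the asparaginase Aspg, with 81.4 ± 5.31 against 186 ± 31.3 (log2 change 1.17, limma adjusted p = 0.00105), of the cysteine dioxygenase Cdo1 (0.61) and of the 5-oxoprolinase Oplah (0.53). Aspg breaks down the product of Asns, and in this line the former was higher and the latter lower.

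The calls with Tfam deleted included Bcat1, the cytosolic branched-chain aminotransferase (log2 change 0.60, limma adjusted p = 0.000485), and Psat1 (0.24, limma adjusted p = 0.0419). Bcat1 kept the threshold in all 6 fits without a sample, and had a limma adjusted p of 0.324 in the fit of all 18 samples. Psat1 lost it in 5 of 6 (highest limma adjusted p 0.167). The single call with Cox10 deleted was Cps1, with 186 ± 3.38 in controls and 51.0 ± 23.0 in deficient lungs (log2 change -1.94, limma adjusted p = 0.0464), which rose to 0.311 at most when a sample was left out. Cps1 of Tfam-deficient lungs had a log2 change of -0.97 (limma adjusted p = 0.0974).

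Close relatives and reverse steps of the 8 enzymes were also read. Pycr3 (Pycrl in the tables), a pyrroline-5-carboxylate reductase like Pycr1, had log2 changes of -0.16 with Rptor deleted, -0.15 with Tfam deleted and -0.08 with Cox10 deleted. None of these passed, and all were negative where those of Pycr1 were positive. Prodh, which starts proline breakdown, fell in the Rptor line (-0.33, limma adjusted p = 0.0172), and Aldh4a1, which completes it, had 0.15 (limma adjusted p = 0.136). Got2, the mitochondrial partner of Got1, also fell there, by 0.31 on the log2 scale (limma adjusted p = 0.00362). Gpt, the cytosolic partner of Gpt2, had -0.18, -0.09 and 0.10 for Rptor, Tfam and Cox10 and did not pass. The glutaminase Gls2 had -0.30 in the Rptor line, and glutamate dehydrogenase (Glud1) had 0.05, 0.02 and 0.03 in the 3 lines. Cbs, which precedes Cth in transsulfuration, had -0.38, -0.01 and 0.20 and did not pass, and the asparaginase Asrgl1 had 0.04, 0.15 and 0.09.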

How the data were processed

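Per the submitters' processing notes, reads were trimmed with Trim Galore, aligned to mm10 with HISAT2 and counted with featureCounts, and DESeq2 was named, without versions. The values that the authors deposited are a normalised signal, a read count per gene over the size factor of its sample. They came in whole steps of 0.978 to 1.02 for 100% of values (tolerance 0.02). They also deposited fold changes and p-values of their own, which were not used. The labels name an Illumina protocol and the study's methods a BGI machine. Groups came from the sample titles. The study's methods say that mutants of several litters were put together for its statistics, but the litter of each sample is not given in the sources used here, so p-values measure the spread between these samples.

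Values were analysed as log2(value + 1), which understates changes of low genes, for genes that reached 10 in 3 or more of the line's 6 samples. Each line was fitted in limma 3.58.1 (R 4.3.3, lmFit and eBayes with a mean-variance trend) with genotype as the only term, and p-values were adjusted by Benjamini-Hochberg over all genes tested (two-sided, threshold 0.05). Differences between lines were tested in a fit of 18 samples and 6 groups. The fit was tested on simulated data. Alternatives were no filter, a mean of at least 50, pseudocounts of 0.1 and 5, scaling to library totals or by trimmed means of M-values, the replicate number as a block, 1 fit of all samples, and leaving out each sample. Same-numbered samples of the Rptor line deviated together from their group means (r of 0.221, 0.330 and 0.259, mean 0.270). The mean r was 0.233 in the Cox10 line and -0.123 in the Tfam line. A pairing by number rests on the data and not on the labels. The fit with genotype alone was therefore kept for the calls, and the replicate block is given beside it.

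The 8 genes and all lists were chosen with earlier results of these data known. The genes named were the 8, per line the 3 largest rises and 3 largest falls of the other pathway genes past the threshold, 12 relatives and reverse-step enzymes, 6 stress factors, and the 5 genes most like Asns with a mean of at least 50. Some genes that this rule names are not reported here. The 5 amidotransferases were named after their values were seen. Exon lengths and positions came from GENCODE (GRCm38, the assembly of mm10) and promoters from RefSeq (GRCm38.p6).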

Additional observations from a re-analysis of the deposited data

Results flagged for a closer look

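The effect of the deletion differed between lines for 5 enzymes by the test of the difference itself (limma on 18 samples, p adjusted over 14550 genes). Rptor minus Tfam gave -2.32 for Asns, -1.86 for Cth, -0.72 for Gpt2, -0.45 for Got1 and -0.39 for Aldh18a1 on the log2 scale. Rptor minus Cox10 gave -1.35 for Asns and -0.99 for Cth. Tfam minus Cox10 gave 0.97 for Asns. No test for single outlying lungs was run, as groups had 3 samples.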

How the results depend on the processing

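With all samples kept, the counts of enzymes changed in the Rptor and Tfam lines and of enzymes that differed between lines stayed within 1.5 times their value. The count of enzymes changed in the Cox10 line was 0, and 1 (Asns) with the replicate block or in 1 fit of all 18 samples. The other pathway genes changed in the Tfam line were 3, but 1 with no filter and 0 in the fit of all samples, and those in the Cox10 line were 1, but 0 with library totals or the replicate block. With the block 5, 5 and 1 enzymes and 22, 2 and 0 other genes passed in the Rptor, Tfam and Cox10 lines. The replicate block also moved the difference of Oat between the Rptor and Tfam lines past the threshold (limma adjusted p = 0.0333). Same-numbered samples correlated at -0.312 to 0.151 in the Tfam line and 0.049 to 0.447 in the Cox10 line. Cth in the Rptor line was at 0.0649 with no filter, and Aldh18a1 there was at 0.0487 with a mean of at least 50 and 0.0465 with trimmed means. The cause was not tested.

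Without 1 sample, enzymes changed ranged from 1 to 5, 3 to 5 and 0 to 1 in the Rptor, Tfam and Cox10 lines, and other genes from 15 to 21, 1 to 2 and 0 to 1. Enzymes that differed ranged from 4 to 6 for Rptor and Tfam, 2 to 3 for Rptor and Cox10 and 0 to 1 for Tfam and Cox10. Signs turned for uncalled values alone. These were Gpt2 in the Rptor line (-0.274 to 0.00728), Aldh18a1 in the Cox10 line (-0.00613 to 0.0363) and the Tfam minus Cox10 difference of Glul (-0.0337 to 0.0543). A count test in edgeR or DESeq2 was not run. Each group had 3 lungs.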
